A study of Rattus norvegicus with 8 samples.

Results

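The neuronal pentraxins are a family of 3 genes, Nptx1, Nptx2 and Nptxr, taken by symbol from a deposited table of 16871 rat genes. All 3 were in the table and all 3 had enough reads to be tested. The data are counts of nascent RNA from BrU-seq, a method that tags RNA with bromouridine, an analogue of uridine, while it is being made, and then captures and sequences only the tagged RNA. The cells were primary neurons of newborn Sprague Dawley rats. The source label calls them hippocampal, and the protocol describes cortical and hippocampal tissue grown together.

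Each group name gives a first and a second treatment, T for tetrodotoxin (TTX, a sodium channel blocker that stops action potentials) and H for the water vehicle. The first lasted 24 h from day 14 in vitro and was washed out for 48 h, and the second lasted 4 h on day 17. TTX was used at 1 µM, and bromouridine at 2 mM was present for the last 30 min in every group. TT cultures received TTX at both times, TH cultures only at the first, HT cultures only at the second, and HH cultures received vehicle at both. Each group had 2 libraries. The labels do not state whether the 2 replicates of a group were grown separately, so the p-values refer to differences between libraries that may be only technical.

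Totals per library lay between 3489176 and 4959887 counts, and 11372 genes (67.4%) passed the expression filter. No gene passed an adjusted p of 0.05 in any of the 8 comparisons (edgeR), against 186 to 1151 genes at an unadjusted p under 0.05. DESeq2 called 29 genes in TT against HH, 11 for the second TTX averaged over the history and 0 elsewhere, with no pentraxin among them, and limma-voom called 0. HH replicate 1 stood apart from the other 7 libraries. A list of 28 tested activity-response genes, which neurons transcribe more when they fire, had its highest value there for 26 genes. Many values rest on that library, and those of Nptx2 and of some of the gene lists are given below with and without it. Neuronal markers were abundant in every library, with summed levels of 2839 to 3542 CPM (a gene's count relative to its library's scaled total) for the excitatory and 3099 to 5535 CPM for the inhibitory list. No listed marker of the neurons or glia was at 0 in all libraries.

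Neuronal pentraxins are secreted or membrane-held proteins that gather in the synaptic cleft and cluster AMPA receptors, the main fast glutamate receptors. Nptx1 and Nptx2 (also called NP1 and Narp) are released, while Nptxr has a membrane anchor from which it can be cut, and the 3 assemble into mixed complexes. Nptx2 was first known as an immediate early gene, switched on by neuronal activity, and its protein collects at excitatory synapses on inhibitory interneurons. Synaptic scaling is the slow adjustment of AMPA receptor number when activity is changed for a long time. The comparisons below therefore ask whether silencing, and an earlier period of silence, go with a different output of new pentraxin RNA.

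Of the 3 genes 1, Nptx2, matched an entry of the promoter table, so only its promoter is shown. The sequence covers the 250 bases before the annotated start, from RefSeq on build GRCr8, at chr12:15162046-15162295 on the minus strand, and is written 5′ to 3′ in the direction of the gene. Capitals mark a TGACG motif, the core of a cAMP response element, and a CCAAT box.
Nptx2 promoter: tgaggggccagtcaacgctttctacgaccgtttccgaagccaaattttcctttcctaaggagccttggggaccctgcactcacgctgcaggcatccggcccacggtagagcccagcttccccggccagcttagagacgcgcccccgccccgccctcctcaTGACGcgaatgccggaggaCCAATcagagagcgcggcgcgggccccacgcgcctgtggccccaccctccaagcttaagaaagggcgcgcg
G and C made up 66.0% of these bases, against a median of 51.2% over all promoters of the table. Motifs were searched on both strands in windows running from 250 bases before to 50 after the start. TGACG began at position -90 from the start, and 21.2% of 33469 such windows hold it. CCAAT began at position -71, and 37.5% of windows hold it. The GC box GGGCGG matched on the opposite strand at positions -107 and -102, in matches that overlap each other, and is in 33.1% of windows. The full element TGACGTCA, the AP-1 element TGANTCA and the E box CANNTG were not in this window; they are in 1.83%, 7.33% and 72.1% of all windows. A match is only a run of letters, and these data do not measure binding. By the GRCr8 annotation no gene overlaps any of the 3 members. Nptx1 lies on chromosome 10 between Endov and Rptor, Nptx2 on chromosome 12 between Tmem130 and Cpsf4l2, and Nptxr on chromosome 7 between Dnal4 and Cbx6.

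Nptx2 nascent RNA was highest in the cultures that never received TTX. It stood at 16.9 and 14.3 CPM in TT libraries, 18.5 and 13.0 in TH, 19.4 and 13.8 in HT, and 27.8 and 19.8 in HH. All 6 libraries exposed to TTX lay below both HH libraries, although HT replicate 1 was close to HH replicate 2. The share of all tested genes in this order was not computed. Lower than HH without overlap were 19.3% of them in TT, 13.4% in TH and 16.7% in HT. HH replicate 1 was 1.40 times the next library. These levels rest on few reads: 68 and 72 counts in TT, 67 and 64 in TH, 75 and 49 in HT, and 90 and 76 in HH. The exact Poisson 95% intervals ran from 36.2 to 64.8 for the lowest of these counts and from 72.4 to 111 for the highest, and cover counting error only. Group means were 15.6 ± 1.84 CPM in TT, 15.7 ± 3.93 in TH, 16.6 ± 3.99 in HT and 23.8 ± 5.61 in HH (SD, n = 2 each). TT, TH and HT differed from each other by less than their spread. In each group replicate 1 was above replicate 2.

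Nptx1, the other secreted member, varied more within groups than between them. It stood at 71.0 and 42.0 CPM in TT libraries, 66.3 and 53.6 in TH, 38.3 and 65.4 in HT, and 28.7 and 66.0 in HH. The lowest value of all, 93 reads in HH replicate 1, and the third highest, 253 reads in HH replicate 2, came from cultures given the same treatments. Group means were 56.5 ± 20.5 CPM in TT, 59.96 ± 8.96 in TH, 51.9 ± 19.2 in HT and 47.3 ± 26.4 in HH (SD, n = 2 each), and no neighbours in that order differed beyond their spread. The HH replicates were 2.30-fold apart, a gap reached by 2.97% of tested genes. Its biological coefficient of variation was 0.308 against a median of 0.118, and 1.39% of tested genes had a value at least as high. The 2 libraries lowest in Nptx1, HH replicate 1 and HT replicate 1, ranked 1 and 3 among the 8 in Nptx2.

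Nptxr, the membrane-anchored member, had its lowest mean in TT cultures and its highest in HH cultures. It stood at 128 and 101 CPM in TT libraries, 174 and 106 in TH, 144 and 144 in HT, and 158 and 172 in HH. The highest single library was TH replicate 1 with 631 reads, not an HH library. Both TT libraries lay below both HT and both HH libraries, whereas TH spanned nearly the whole range. Of all tested genes 16.2% were lower in TT than in HT without overlap, and 19.3% lower in TT than in HH. Group means were 114.5 ± 19.5 CPM in TT, 140.2 ± 48.3 in TH, 144.3 ± 0.0405 in HT and 164.9 ± 10.3 in HH (SD, n = 2 each). TT and HH differed by more than the spread within either, while TH differed from no group beyond its own. The HT replicates were closer than those of nearly all other genes, since 99.9% of tested genes had at least as large a gap.

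**Figure D1:**
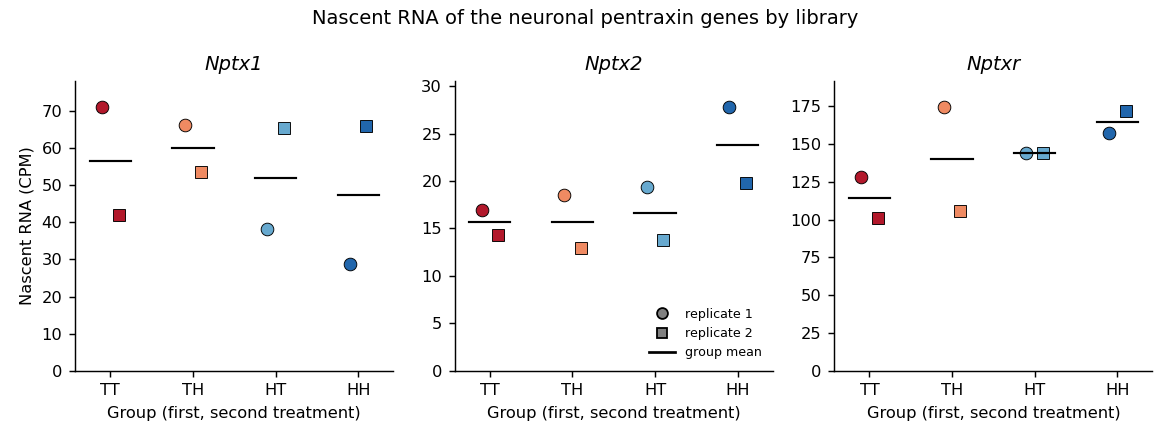
Nascent RNA in CPM (vertical axes, each from 0) of Nptx1, Nptx2 and Nptxr in the groups TT, TH, HT and HH, with a circle for replicate 1, a square for replicate 2 and a line for the group mean. Nptx2 lies at 19.8 and 27.8 CPM in HH and at 19.4 CPM or less in the other 6 libraries, while Nptx1 replicates of HH lie 2.30-fold apart.

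The comparison of cultures silenced at both times with cultures never silenced held the most genes at an unadjusted p under 0.05. In TT against HH, Nptx2 had a log2 change of -0.60 ± 0.26 (SE), a ratio of 0.659, and Nptxr one of -0.53 ± 0.21, a ratio of 0.693. Neither passed: edgeR's quasi-likelihood test gave unadjusted p = 0.0379 and adjusted p = 0.463 for Nptx2, and unadjusted p = 0.0309 and adjusted p = 0.445 for Nptxr. For both genes the groups did not overlap, and 0% of all genes passed. Nptx1 stood at 0.23 ± 0.45 with overlapping groups (edgeR adjusted p = 0.891). Unadjusted p was under 0.05 for 2 of 3 members against 10.1% of all tested genes, and 2 of 3 were lower with no overlap against 19.3% of all.

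Much of the Nptx2 difference lay in 1 library. Without HH replicate 1 its log2 change in TT against HH was -0.35 ± 0.29 (edgeR adjusted p = 0.813), and without HH replicate 2 it was -0.84 (edgeR adjusted p = 0.154). The Nptxr difference was as large without HH replicate 1, at -0.60 ± 0.25 (edgeR adjusted p = 0.664). It depended more on the TT libraries, with -0.71 without TT replicate 1 and -0.36 without TT replicate 2. For Nptx1 the sign turned, with -0.24 without HH replicate 1 and 0.96 without HH replicate 2.

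The second TTX, given to cultures with no earlier silence (HT against HH), asks how the genes stand after 4 h of silencing. Nptx2 had a log2 change of -0.51 ± 0.26, which did not pass (edgeR unadjusted p = 0.0753, adjusted p = 0.802). Nptxr stood at -0.19 ± 0.21 (edgeR adjusted p = 0.899) and Nptx1 at 0.11 ± 0.46 (edgeR adjusted p = 0.981). Nptx2 and Nptxr were lower in both HT libraries than in both HH libraries, which held for 16.7% of all tested genes in that direction. No member was under an unadjusted p of 0.05, against 6.49% of all. The Nptx2 value was -0.25 ± 0.30 without HH replicate 1, and that of Nptx1 turned to -0.35.

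In cultures with an earlier silence (TT against TH) Nptx2 stood at 0.0036 ± 0.26 after the same TTX treatment (edgeR unadjusted p = 0.989). Nptx1 stood at -0.089 ± 0.44 (edgeR unadjusted p = 0.845) and Nptxr at -0.29 ± 0.21 (edgeR unadjusted p = 0.201). All 3 members overlapped between TT and TH, while 14.1% of all tested genes were lower in TT with no overlap and 2.64% had an unadjusted p under 0.05. The Nptxr value rested on TH replicate 1, without which it was 0.11. The difference between the 2 responses was itself tested. The interaction of Nptx2 was 0.51 ± 0.37 (edgeR unadjusted p = 0.193), that of Nptx1 -0.20 ± 0.64 (edgeR unadjusted p = 0.761) and that of Nptxr -0.095 ± 0.30 (edgeR unadjusted p = 0.755), against 1.64% of all genes under 0.05. The Nptx2 interaction was 0.25 without HH replicate 1, 0.29 without HT replicate 2 and 0.26 without TH replicate 2, but 0.78 without HT replicate 1 and 0.77 without TH replicate 1. A different response of Nptx2 to TTX after an earlier silence was therefore not detectable at this depth and number of libraries.

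The history of silence alone was read in TH against HH, after the 48 h washout and the 4 h of vehicle. Nptx2 stood at -0.61 ± 0.26 (edgeR unadjusted p = 0.0381, adjusted p = 0.891), with both TH libraries below both HH libraries. That is 1 of 3 members under an unadjusted p of 0.05 against 4.08% of all tested genes, and 1 of 3 lower without overlap against 13.4%. Leaving out HH replicate 1 brought the value to -0.35. Nptx1 stood at 0.32 ± 0.45 (edgeR adjusted p = 0.945) and was -0.14 without HH replicate 1. Nptxr stood at -0.24 ± 0.21 (edgeR adjusted p = 0.901), with -0.64 without TH replicate 1 and 0.080 without TH replicate 2.

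When the second treatment was TTX in both groups (TT against HT), Nptx2 stood at -0.094 ± 0.26 (edgeR unadjusted p = 0.728) and Nptx1 at 0.12 ± 0.45 (edgeR unadjusted p = 0.799). Nptxr stood at -0.34 ± 0.21 (edgeR unadjusted p = 0.142), and both TT libraries lay below both HT libraries. The Nptxr value was -0.52 without TT replicate 1 and -0.17 without TT replicate 2. Of all tested genes 16.2% were lower in TT without overlap, and 2.35% had an unadjusted p under 0.05. The comparisons with HH share the same 2 HH libraries, so their values are not separate observations.

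Averaged over the other treatment, with 4 libraries on each side, Nptx2 and Nptxr were below 0 for both factors and passed for neither. For the second TTX the log2 changes were -0.25 ± 0.18 for Nptx2 (edgeR adjusted p = 0.841), -0.24 ± 0.15 for Nptxr (edgeR adjusted p = 0.802) and 0.011 ± 0.32 for Nptx1. For the history they were -0.35 ± 0.18 for Nptx2, -0.29 ± 0.15 for Nptxr and 0.22 ± 0.32 for Nptx1 (edgeR adjusted p = 0.814, 0.814 and 0.931). For Nptx2 the second TTX value was -0.13 without HH replicate 1, -0.12 without TH replicate 1 and -0.14 without HT replicate 2, and the extreme on the other side was -0.39 without HT replicate 1. Its history value was -0.23 without HH replicate 1, -0.21 without HT replicate 1 and -0.22 without TH replicate 2. The Nptxr values turned on the TH libraries. Without TH replicate 1 they were -0.042 for the second TTX and -0.49 for the history, and without TH replicate 2 they were -0.40 and -0.13. No member was under an unadjusted p of 0.05 in either, against 6.94% of all genes for the second TTX and 5.75% for the history. In neither did a member's 4 libraries on one side clear the 4 on the other, which 4.34% and 2.9% of all genes did.

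**Figure D2:**
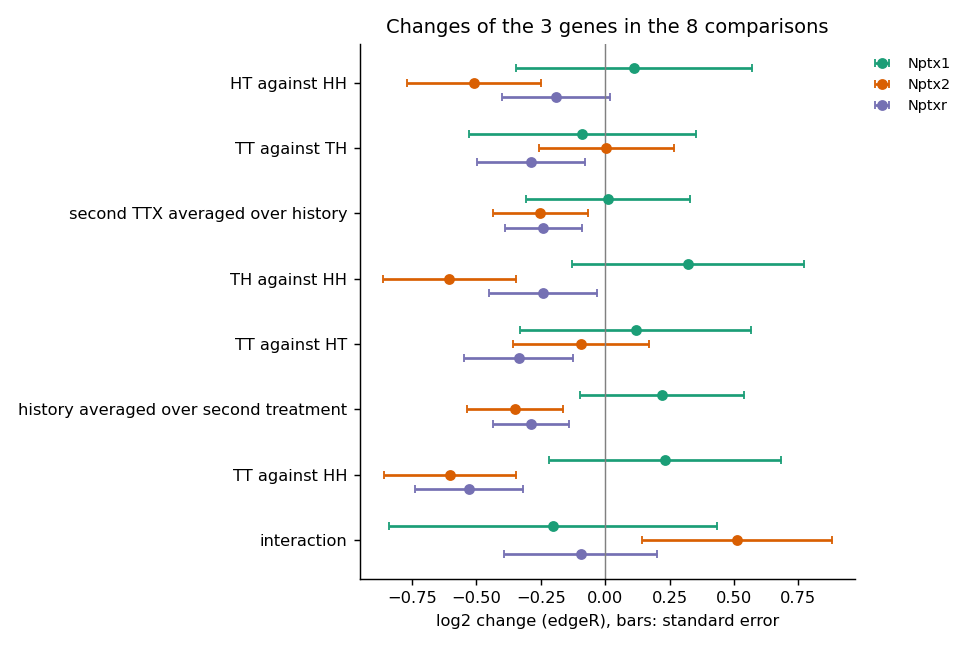
Log2 changes of Nptx1, Nptx2 and Nptxr in 8 comparisons (horizontal axis, edgeR), with bars for the standard error. Nptx2 lies near -0.5 to -0.6 in the 3 comparisons with HH and near 0 in TT against TH and TT against HT, and Nptxr lies below 0 in all 8 with all libraries in the fit.

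**Figure D3:**
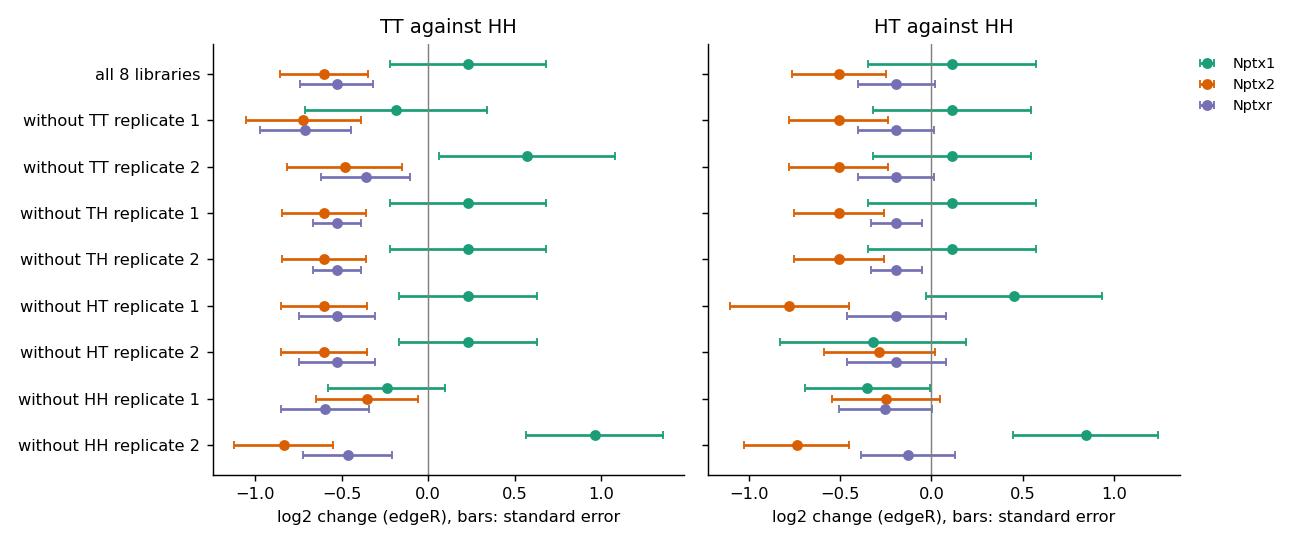
Log2 changes (horizontal axis, edgeR, bars for the standard error) in TT against HH and HT against HH with all 8 libraries and with each library left out in turn. Nptx2 is nearer 0 without HH replicate 1, at -0.35 and -0.25, and Nptx1 changes sign there.

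Because a gene's length cancels between libraries, the balance of the 2 secreted members could be followed library by library. Nptx2 made up 19.3% of the Nptx1 and Nptx2 reads in TT replicate 1 and 25.4% in TT replicate 2, and 21.8% and 19.5% in TH. In HT the share was 33.6% and 17.4%, and in HH it was 49.2% and 23.1%. HH replicate 1 therefore stood apart, with an exact 95% binomial interval of 41.7% to 56.7% that overlapped no other library's. HT replicate 1 was next, with an interval of 27.5% to 40.2%. The other 6 libraries, which come from all 4 groups, lay between 17.4% and 25.4%. A high share can come from low Nptx1 as well as from high Nptx2. Relative to the mean over libraries, Nptx1 lay at -0.84 (log2) in HH replicate 1 and -0.43 in HT replicate 1. Nptx2 lay at 0.65 and 0.15 there.

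The ratio of Nptx2 to Nptx1 was compared by an exact permutation test, two-sided, in which libraries were exchanged only within a level of the other treatment. This allows 36 assignments and a smallest p of 0.0556, so no ratio could pass 0.05. The mean log2 ratio was -1.68 ± 0.56 with the second TTX and -1.40 ± 0.91 with vehicle (SD, n = 4 each, exact permutation p = 0.556, 0.834 adjusted over 6 tests). It was -1.84 ± 0.24 with a history of TTX and -1.23 ± 0.94 without (n = 4 each, exact permutation p = 0.333, adjusted 0.834). For Nptx2 over Nptxr the differences were -0.027 for the second TTX and -0.016 for the history (exact permutation p = 0.944 and 0.889). The log2 ratio of those 2 genes stayed between -3.345 and -2.484 over the 8 libraries. Nptxr over Nptx1 ranged more widely, from 0.849 in TT replicate 1 to 2.44 in HH replicate 1, and differed by -0.26 for the second TTX and -0.60 for the history (exact permutation p = 0.444 and 0.222, adjusted 0.834).

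Across the 8 libraries Nptx2 and Nptxr had Pearson r = 0.668 and Spearman rho = 0.714, which did not pass 0.05 (exact permutation p = 0.0572 and 0.0576, adjusted over 3 pairs 0.172 and 0.173). Without HH replicate 1 and TH replicate 2, the libraries farthest from the median, r was 0.657 (exact permutation p = 0.186). Nptx1 and Nptx2 had r = -0.517 and rho = -0.238 (exact permutation p = 0.226 and 0.582, adjusted 0.339 and 0.703). That negative value rests on HH replicate 1 and HT replicate 1, since without them r was 0.552 (exact permutation p = 0.278). Nptx1 and Nptxr had r = 0.134 and rho = 0.167 (exact permutation p = 0.745 and 0.703), and r was 0.765 without the same 2 libraries (exact permutation p = 0.0861).

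Genes that answer neuronal activity were set beside Nptx2, with Nptx2 itself left out of the list. Of the 28 tested, 28 lay below 0 in TT against HH, 12 with an unadjusted p under 0.05 and 0 past the adjusted threshold (edgeR), with a median of -1.27 against 0.00335 over all genes, of which 10.1% were under an unadjusted 0.05. In HT against HH all 28 were again below 0, with a median of -0.76 and 3 under an unadjusted 0.05 (6.49% of all genes). All 28 were also below 0 in TH against HH, with a median of -0.857 and 5 under an unadjusted 0.05 (4.08% of all genes). In TT against TH 19 of 28 were, with a median of -0.138. The values against HH rest on HH replicate 1. Without it 23 of 28 lay below 0 in TT against HH, with a median of -0.212, and 18 of 28 in TH against HH, with a median of -0.074. In HT against HH 16 then lay above and 12 below 0, with a median of 0.147. Their summed level was 769.6 and 699.5 CPM in TT, 844.8 and 739.1 in TH, 1028 and 765 in HT, and 2251 and 830.7 in HH. HH replicate 1, the library highest in Nptx2, was thus also far above its partner in these genes. HT replicate 1, with the next highest level of the list among libraries, was also the highest of the TTX-exposed libraries in Nptx2. HH replicate 2, above HT replicate 1 in Nptx2 at 19.8 against 19.4 CPM, was below HT replicate 1 and TH replicate 1 in the list. Bdnf, a secreted neurotrophin, stood at 17.7 and 13.0 CPM in TT, 19.3 and 10.9 in TH, 35.96 and 12.1 in HT, and 122.1 and 20.1 in HH. The part of this difference between the HH libraries in the Nptx2 values was not tested.

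**Figure D4:**
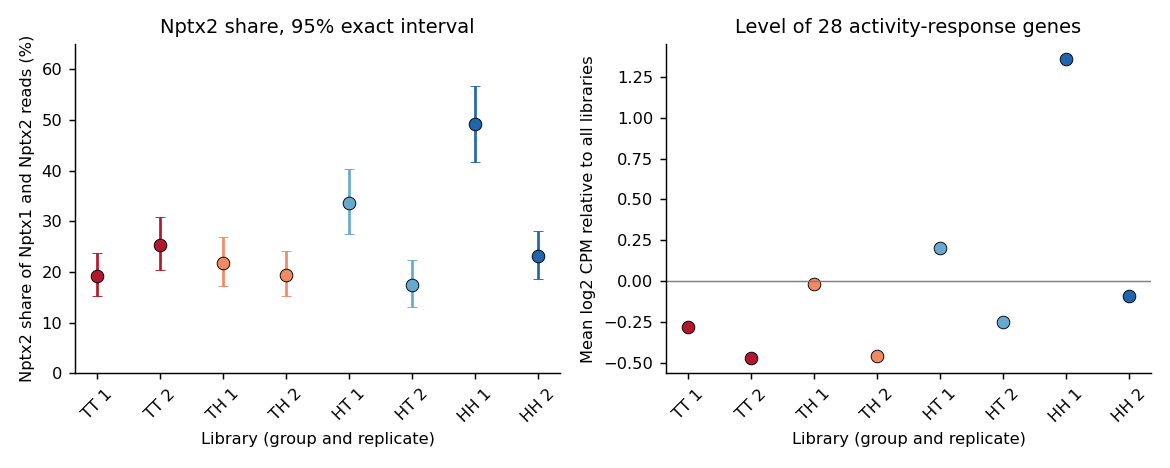
The left panel shows the percentage of Nptx1 and Nptx2 reads that were Nptx2 in each library, with exact 95% binomial intervals, and the right panel the mean log2 CPM of 28 activity-response genes relative to the mean of all libraries. HH replicate 1 is highest in both, at 49.2% and 1.36, and HT replicate 1 is next, at 33.6% and 0.205. Nptx1 was lowest in the same libraries, at 28.7 and 38.3 CPM, so the share does not follow Nptx2 alone.

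AMPA receptor subunits, the receptors that pentraxins gather, had no member past an adjusted or unadjusted 0.05 in TT against HH. All 4 lay below 0, with a median of -0.336, or -0.107 and 3 of 4 below 0 without HH replicate 1. Gria4, the subunit of fast-spiking interneurons whose clustering by pentraxins is best known, stood at 714.8 and 732.8 CPM in TT, 651.1 and 765 in TH, 795 and 671 in HT, and 1309 and 744.1 in HH. Only HH replicate 1 was high, and the log2 change was -0.50 ± 0.23 (edgeR unadjusted p = 0.0537, adjusted p = 0.501), or -0.045 ± 0.18 without that library. In TT against TH 2 subunits were above and 2 below 0, with a median of -0.019. Of 16 auxiliary and assembly proteins tested, 7 lay above and 9 below 0 in TT against HH. Cacng3, a transmembrane AMPA receptor regulatory protein, stood at -0.65 ± 0.19 (edgeR unadjusted p = 0.00625, adjusted p = 0.344), or -0.34 ± 0.18 without HH replicate 1. With all libraries, Cacng2 stood at -0.17 ± 0.12, Cacng4 at 0.19 ± 0.12 and Cacng5 at -0.72 ± 0.35.

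Of the partners and release factors of pentraxins, 5 of 7 were in the table and tested, and 0 passed. Adam17, the protease that cuts Nptxr from the membrane, stood at 0.30 ± 0.16 in TT against HH (edgeR unadjusted p = 0.0924), and thus on the other side of 0 from Nptxr. Lgi1, a secreted synaptic protein, stood at -0.40 ± 0.16 (edgeR unadjusted p = 0.0311, adjusted p = 0.445), or -0.19 ± 0.17 without HH replicate 1. Gpc4, a glypican through which mouse astrocytes cause release of Nptx1, stood at 19.2 and 17.9 CPM in TT, 19.6 and 13.4 in TH, 34.7 and 20.5 in HT, and 34.8 and 17.5 in HH. It was highest in HH replicate 1 and HT replicate 1, the libraries lowest in Nptx1. Pentraxins of other tissues were near the floor. Ptx3, the long pentraxin of innate immunity, had 6 to 20 reads, and the acute-phase genes Crp and Apcs had 0 in all 8 libraries, which allows up to 0.598 to 0.925 CPM.

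Cell type markers were counted in TT against HH as well, where Nptx2 and Nptxr had their lower values in TT and where 10.1% of all tested genes had an unadjusted p under 0.05. All 12 tested oligodendrocyte lineage markers lay above 0, 10 of them at an unadjusted p under 0.05 and 0 past the adjusted one (edgeR), with a median of 0.93. Their summed level was 1106 to 1748 CPM in TT, 929.3 to 1131 in TH, 1058 to 1059 in HT and 738.3 to 743.1 in HH. TT replicate 2 held the highest value of 9 of the 12, and values without that library are not given. All 10 proliferation markers lay above 0 as well, 9 at an unadjusted p under 0.05, with a median of 0.734, or 0.693 without HH replicate 1. Astrocyte markers lay above 0 in 8 of 10, 4 of them at an unadjusted p under 0.05. Their median was 0.291, or 0.258 with 7 of 10 above 0 without HH replicate 1. Inhibitory neuron markers lay below 0 in 11 of 13, with 3 under an unadjusted 0.05 and a median of -0.507. Their summed level was 3231 and 4077 CPM in TT, 3562 and 4087 in TH, 3475 and 3099 in HT, and 5535 and 3704 in HH, so that TT replicate 2 was above HH replicate 2, and 6 of the 13 were highest in HH replicate 1. The inhibitory median was -0.233 without HH replicate 1, with 1 gene under an unadjusted 0.05, while 10 of 12 oligodendrocyte lineage markers lay above 0 with a median of 0.693. Excitatory markers lay below 0 in 6 of 10 with none under 0.05 and a median of -0.132, or 9 of 10 and -0.263 without that library. The excitatory list summed to 2839 to 3183 CPM in TT, 2839 to 3417 in TH, 3223 to 3245 in HT and 3365 to 3542 in HH. In bulk samples fewer cells of a type and less RNA per cell cannot be told apart, and the part of these markers in the Nptx2 and Nptxr values was not tested.

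The genes most like each member were taken as the 5 with the highest Pearson r of log2 CPM over the 8 libraries, out of 11002 genes compared. For Nptx2 they were Grasp (0.992), B4galnt1 (0.984), Slc6a17 (0.973), Kcnh1 (0.960) and Slc30a4 (0.959). Grasp, a scaffold protein of glutamate receptors, stood at 11.5 and 8.17 CPM in TT, 12.7 and 7.08 in TH, 15.01 and 8.14 in HT, and 24.98 and 13.0 in HH, and r was 0.981 without HH replicate 1. It had, like Nptx2, the high HH replicate 1 and the higher value of replicate 1 in every group. Because it was picked for its r over these same libraries, this is not a separate observation. For Nptxr they included Tubb2a (0.983), Sst (0.972), Eno1 (0.964) and Snhg11 (0.960). Sst, the neuropeptide somatostatin of a class of interneurons, stood at 55.1 and 32.5 CPM in TT, 93.1 and 33.2 in TH, 53.6 and 64.6 in HT, and 91.0 and 94.2 in HH.

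For Nptx1 the most similar genes were Cux2 (0.967), Prrt2 (0.965), Scara5 (0.965), Lancl1 (0.961) and Ap3d1 (0.961). Prrt2, a presynaptic protein, was lowest in HH replicate 1 at 26.8 CPM and highest in HH replicate 2 at 58.7 CPM, the same 2 libraries between which Nptx1 differed 2.30-fold. That likeness too follows from the choice by r. An r above 0.9 was reached by 75 genes with Nptx1, 57 with Nptx2 and 68 with Nptxr, that is 0.682%, 0.518% and 0.618% of those compared. The points share 8 libraries and their scaling, and the order within the top is not stable. By Spearman's rho 0 of the 5 stayed in the top 5 for Nptx1, 2 for Nptx2 and 0 for Nptxr. Without HH replicate 1 the numbers were 0, 2 and 3, and all 5 of each member stayed among the top 100.

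**Figure D5:**
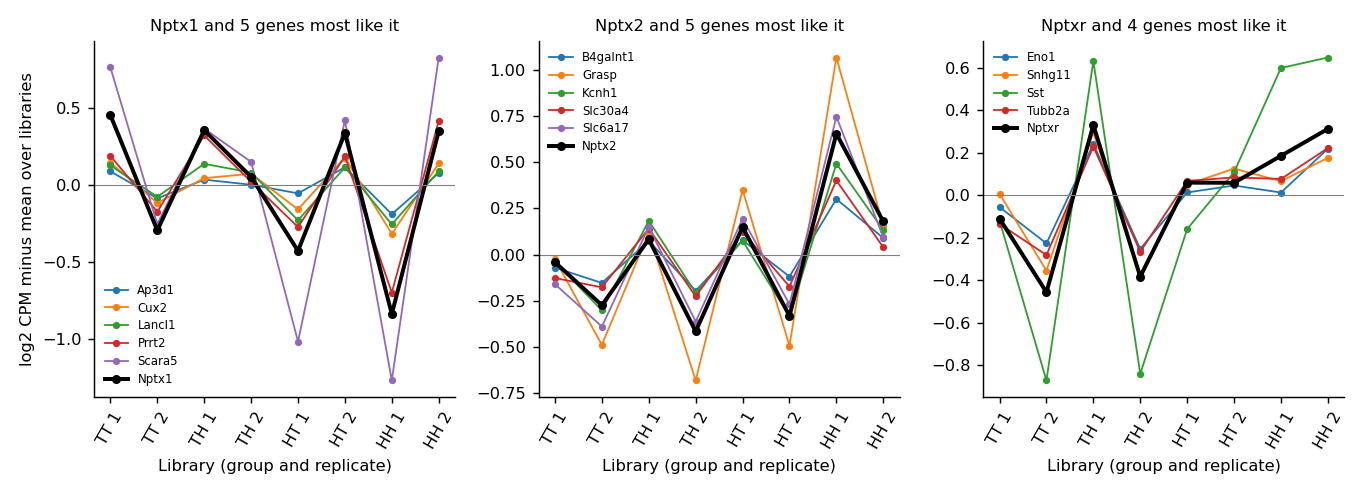
Log2 CPM minus the mean over libraries (vertical axes) in each of the 8 libraries for Nptx1, Nptx2 and Nptxr (black) and the genes named as most like each, 5 for Nptx1 and Nptx2 and 4 for Nptxr. Grasp exceeds Nptx2 in range, with r = 0.992, and Nptx1 and its nearest genes are low in HT replicate 1 and HH replicate 1.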

How the data were processed

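The authors deposited 1 table of whole-number read counts per gene symbol, without normalization. Reads went through FastQC, Bowtie2, TopHat2 and featureCounts on rat build rn6, per the submitters' processing notes. Not given in the sources used here are tool versions, annotation, strand setting and whether introns were counted. Much nascent RNA still holds introns, so counting exons alone would lower long-intron genes, and levels were not compared between genes. The leading number of each sample's description identified its column, and 2 columns that matched none were not used.

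The tests ran in edgeR 4.0.16 (R 4.3.3): filterByExpr, TMM scaling, 1 model of 4 group means with 4 residual degrees of freedom, the robust quasi-likelihood test, and Benjamini-Hochberg adjustment over 11372 genes at 0.05. Standard errors were derived from the log2 change and its F statistic, and log2 CPM used a prior count of 2. Intervals cover counting error only, and no molecular identifiers are described. Replicates of every group differed beyond sampling noise (chi-square over degrees of freedom 4.04 to 11.4), so no library was taken as a second deposit of the same library; this does not show separate cultures. The step was tested on simulated data with planted changes larger than those of the members and no outlying library. Its recovery of smaller changes was not tested. Exact permutation tests used scipy 1.17.1, and figures matplotlib 3.10.9 in Python 3.11.15. Alternatives were DESeq2 size factors, no filter, a mean count of at least 50, DESeq2 1.42.0, limma-voom (limma 3.58.1), only the groups compared, a replicate block, each library left out, and HH replicate 1 and HT replicate 1 left out together. Gene lists and 3 named genes without HH replicate 1 were added after seeing the data. RefSeq gene tables (GRCr8) gave neighbours and promoters only.

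The members and gene lists were chosen with earlier results of these data known. Genes named are the 3 members in every comparison, the 5 genes most like each, the 4 or fewer genes per list with the smallest p for the second TTX, and a few activity and AMPA receptor genes set beside a member. A gene that this rule names is not reported here. No batch or date is in the labels, and no within-batch value was computed.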

Additional observations from a re-analysis of the deposited data

How the results depend on the processing

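None of the 24 member changes (3 genes, 8 comparisons) passed an adjusted p of 0.05 under any of up to 16 alternatives each. The smallest adjusted p was 0.154 (edgeR), for Nptx2 in TT against HH without HH replicate 2. Of 375 recomputed values 337 kept their direction, and 11 of the 24 changes kept it throughout. Rescaling by DESeq2 size factors moved the median of all genes most in TT against HH, by -0.0139 (log2).

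The edgeR model as described called 0 genes. In TT against HH 28 were called without the filter, 29 by DESeq2 and 11 with the replicate block, and for the second TTX averaged 16 without the filter and 11 by DESeq2. Whether the replicate numbers pair the libraries was not settled by the deviations between replicates. These correlated above 0.1 in 1 of 6 pairs of groups, HT with HH at 0.447, and the lowest value was -0.0658. With the block, Nptx2 in TT against HH was -0.59 ± 0.19 (edgeR adjusted p = 0.311), and no call of a member changed. The block lowered the unadjusted p (edgeR) of Nptx2 in HT against HH from 0.0753 to 0.0230 (adjusted p = 0.683). For the history it fell from 0.0840 to 0.0356 for Nptx2 and from 0.0811 to 0.0402 for Nptxr (adjusted p = 0.7075 for both). It rose for Nptx2 in TT against HT, from 0.728 to 0.733, and for the Nptxr interaction, from 0.755 to 0.778. Leaving out each library gave 0 to 32 calls in HT against HH, 0 to 1 in TT against TH, 0 to 121 in TH against HH, 0 to 248 in TT against HH, 0 to 2 for the interaction, 0 to 7 for the second TTX and 0 to 100 for the history. The 32, 121 and 248 came without HH replicate 2.

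With each library left out, log2 changes of Nptx1 ran from -0.35 to 0.85 in HT against HH, -0.51 to 0.25 in TT against TH, -0.14 to 1.06 in TH against HH, -0.30 to 0.55 in TT against HT, -0.24 to 0.96 in TT against HH, -0.94 to 0.25 for the interaction, -0.22 to 0.38 for the second TTX and -0.016 to 0.59 for the history. Those of Nptx2 ran from 0.25 to 0.78 for the interaction, -0.39 to -0.12 for the second TTX, -0.48 to -0.21 for the history, -0.25 to 0.27 in TT against TH and -0.32 to 0.18 in TT against HT, and those of Nptxr from -0.61 to 0.11 in TT against TH, -0.64 to 0.080 in TH against HH, -0.42 to 0.30 for the interaction, -0.40 to -0.042 for the second TTX, -0.49 to -0.13 for the history and -0.52 to -0.17 in TT against HT. The log2 ratio differences ran from -0.70 to 0.13 (Nptx2 over Nptx1) and -0.53 to 0.0048 (Nptxr over Nptx1) for the second TTX, and for Nptx2 over Nptxr from -0.18 to 0.12 for the second TTX and -0.17 to 0.13 for the history.

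Without HH replicate 1 and HT replicate 1 together, Nptx1 turned to -0.013 in HT against HH, -0.23 in TT against HT, -0.24 in TT against HH, -0.14 in TH against HH, -0.055 for the second TTX and -0.19 for the history. Nptx2 in TT against HT turned to 0.17, and its history value shrank to -0.089. The correlation of Nptx1 and Nptx2 turned to 0.552. Without HH replicate 1, added after seeing the data, the activity-response median in HT against HH turned to 0.147. In TT against TH Nptx2, at 0.0036, crossed 0 to -0.00050 with DESeq2 size factors, -0.0044 at a mean count of 50, -0.0047 with DESeq2, -0.0020 with only those groups and -0.0012 without both libraries. Beyond the libraries left out, the cause of these shifts was not tested. With 49 to 90 reads per library, counting error alone leaves Nptx2 levels wide.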

Other observations

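Other proteins that join the presynaptic and postsynaptic sides, such as neurexins, neuroligins and their partners, were counted for comparison with the pentraxins. Of 34 listed, 33 were in the table and 28 were tested. In TT against HH 11 lay above and 17 below 0, with 2 above and 3 below at an unadjusted p under 0.05 and 0 past the adjusted one (edgeR), and a median of -0.0756. Lrrtm4, a leucine-rich postsynaptic organizer, stood at -0.61 ± 0.22 (edgeR adjusted p = 0.406). Nrxn3, a presynaptic neurexin, stood at -0.45 ± 0.19 (edgeR adjusted p = 0.466). The sizes of Lrrtm4 and Nrxn3 are near those of Nptx2 and Nptxr. Flrt3 and Slitrk2, also on this list, stood at -0.24 ± 0.20 and 0.49 ± 0.36 (edgeR adjusted p = 0.710 and 0.665). HH replicate 1 held the highest value of 9 of the 28 tested genes, and values without that library are not given for this list. An r under -0.9 over the 8 libraries was reached by 104 genes with Nptx1, 56 with Nptx2 and 49 with Nptxr.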
